A study of Mus musculus with 9 samples.

Results

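The genes described here encode the pores and auxiliary subunits of voltage-gated calcium, sodium and potassium channels, of the other potassium channels and of the HCN pacemaker channels. They were found by symbol alone (names beginning Kcn, Cacn, Scn or Hcn that fit the pattern of channel subunit names), which gave 135 genes of the 24016 rows of the deposited count table. Of these, 105 reached a mean of at least 0.5 CPM (counts scaled to a common library size) in a group and are described, and 30 did not. The lowest of the 105 were Cacna2d4 at 0.515 CPM and Kcnj16 at 0.516 CPM in their highest group, and the highest of the 30 were Cacng1 at 0.485 CPM and Scn11a at 0.41 CPM. Cacng6 and Kcnk15 had no count in any library.

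Libraries were made from the gut of E14.5 mouse embryos, wild type and of strain C57BL/6, with 3 libraries of separated epithelium and 3 of separated mesenchyme, both labelled as given no agent, and 3 of whole intestine grown for 24 hours on transwell membranes with cyclopamine. Cyclopamine blocks Smoothened, the membrane protein that passes on the hedgehog signal sent by the epithelium to the mesenchyme; its dose is not given. The design text speaks of the 24 hour culture for the intestines, and not of whether the layers were separated before or after it. Untreated whole intestine was not analysed here, so treatment and tissue make-up cannot be told apart in any comparison of treated intestine with a single layer. The labels do not say that each library came from its own embryos, so a p-value here speaks only of the scatter among these libraries, part of which may be technical.

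Voltage-gated channels open when the membrane depolarises: calcium channels admit the calcium that contracts smooth muscle and releases transmitter, sodium channels carry the neuronal action potential, and potassium channels end it. Inward rectifier and tandem-pore-domain (K2P) potassium channels stay open near rest and hold the membrane negative, and in transporting epithelia potassium channels keep up the electrical force that drives chloride secretion. In the gut wall, smooth muscle, interstitial cells of Cajal (the pacemaker cells), enteric neurons and fibroblast-like cells all lie in the layer called mesenchyme here.

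Total counts ran from 9739394 in mesenchyme replicate 1 to 26357115 in mesenchyme replicate 3. Mesenchyme replicate 1 stood apart, because 59.06% of its counts fell on the ribosomal RNA gene Rn45s; without Rn45s, Lars2 and Mir6236 it held 3284702 counts, so that 1 count was worth 0.271 CPM there and 0.0346 to 0.0602 CPM in the other libraries. It gave the highest of the 3 mesenchyme values for 66 of the 105 described channel genes. The layers matched their labels: epithelium exceeded mesenchyme in 15 of 15 epithelial markers, and 12 of 12 fibroblast and 15 of 15 smooth muscle markers were higher in mesenchyme. Epithelium replicate 1 carried more mesenchymal RNA than the other epithelium libraries, with a summed fibroblast marker level of 1061 CPM against 297.6 and 199.2 CPM, and a summed smooth muscle marker level of 341.8 CPM against 130.5 and 78.84 CPM. It was the highest epithelium library for 55 of the 73 channel genes that were lower in epithelium. For neither count of highest libraries was the matching share over all genes counted. Values that move by more than 1.5-fold when epithelium replicate 1 is left out are given both ways.

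Most channel genes had far more RNA in mesenchyme than in epithelium. Channel genes took 0.211 to 0.306% of the counts in the mesenchyme libraries, 0.0427 to 0.0563% in the epithelium libraries and 0.113 to 0.137% in the treated libraries (shares of the counts left without Rn45s, Lars2 and Mir6236). Of the 93 members with enough counts for edgeR's quasi-likelihood test, 73 were lower in epithelium, 9 were higher and 11 did not pass an adjusted p of 0.05. Over all 15141 genes tested, 33.4% were lower and 29.3% higher in epithelium (62.7% in either direction), and the median log2 difference was 0, against -3.68 over the 93 members. A gene with few counts passes the count filter through the layer where it is higher, so the 93 are not a sample of all 135 members. Without epithelium replicate 1 the counts were 78 lower and 8 higher, where 31.3% and 25.1% of all genes were. Without mesenchyme replicate 1 they were 82 and 8, where 37% and 33.3% of all genes were. The CPM ranges of the 3 epithelium and the 3 mesenchyme libraries did not overlap for 74 members lower and 11 higher in epithelium, and did not overlap for 73.5% of all genes tested.

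**Figure D1:**
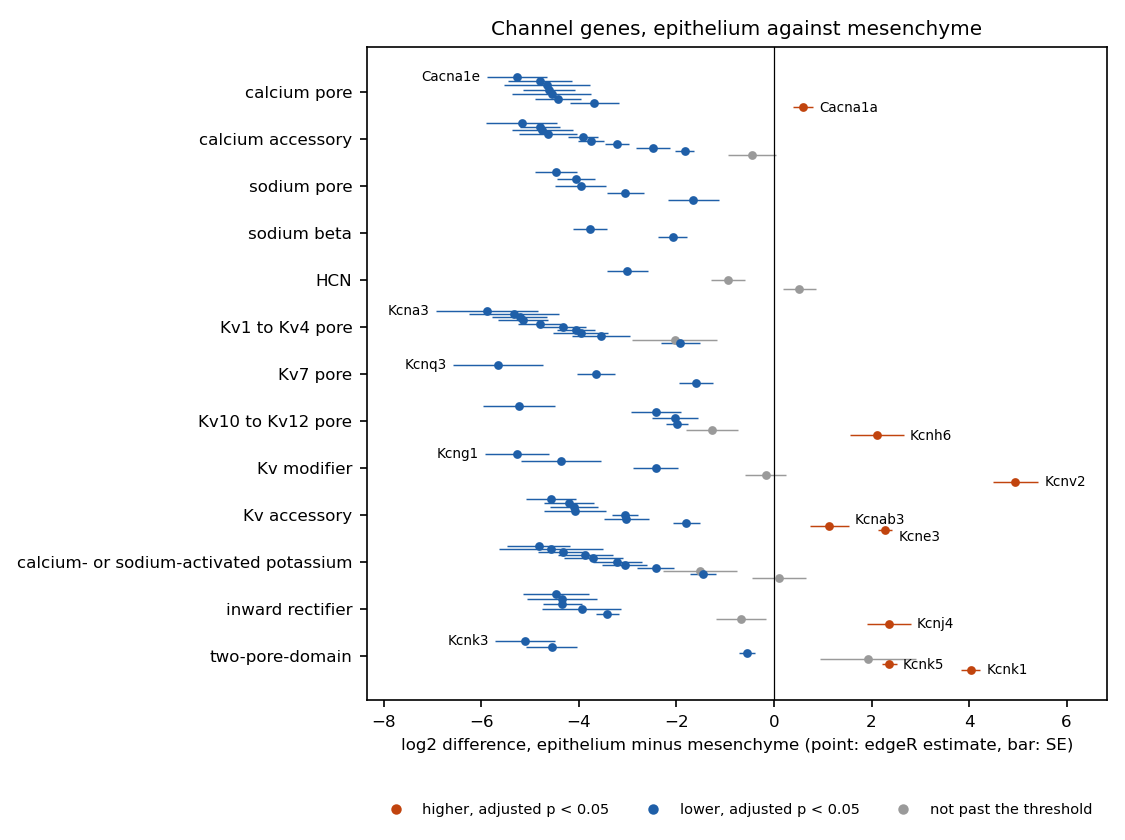
log2 difference between epithelium and mesenchyme (x axis, edgeR estimate with its standard error) for the channel genes reported, by channel class (y axis). Points left of 0 were lower in epithelium; the 8 plotted members to the right and past the threshold are named, and the most negative estimates rest on very few epithelial counts.

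In whole intestine treated with cyclopamine, 29 of 97 tested members were lower than in mesenchyme, 7 were higher and 61 did not pass the threshold; over all 15224 genes tested, 18.8% were lower and 20.5% higher (39.2% in either direction). The median log2 difference was -0.48 over these members and 0.017 over all genes. Without mesenchyme replicate 1 the counts were 32 lower and 7 higher, where 24.6% and 23.4% of all 15699 genes were. Of the 29 lower members, 28 were also lower in epithelium than in mesenchyme, as were 73 of the 93 members tested between the layers. The comparisons share the mesenchyme libraries, and the matching share over all genes was not counted. Against epithelium, 72 of 93 tested members were higher in treated intestine and 9 were lower, where 37% and 35.9% of all 15301 genes were (72.8% in either direction). Treated intestine holds both layers, and the share of each in it was not measured.

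**Figure D2:**
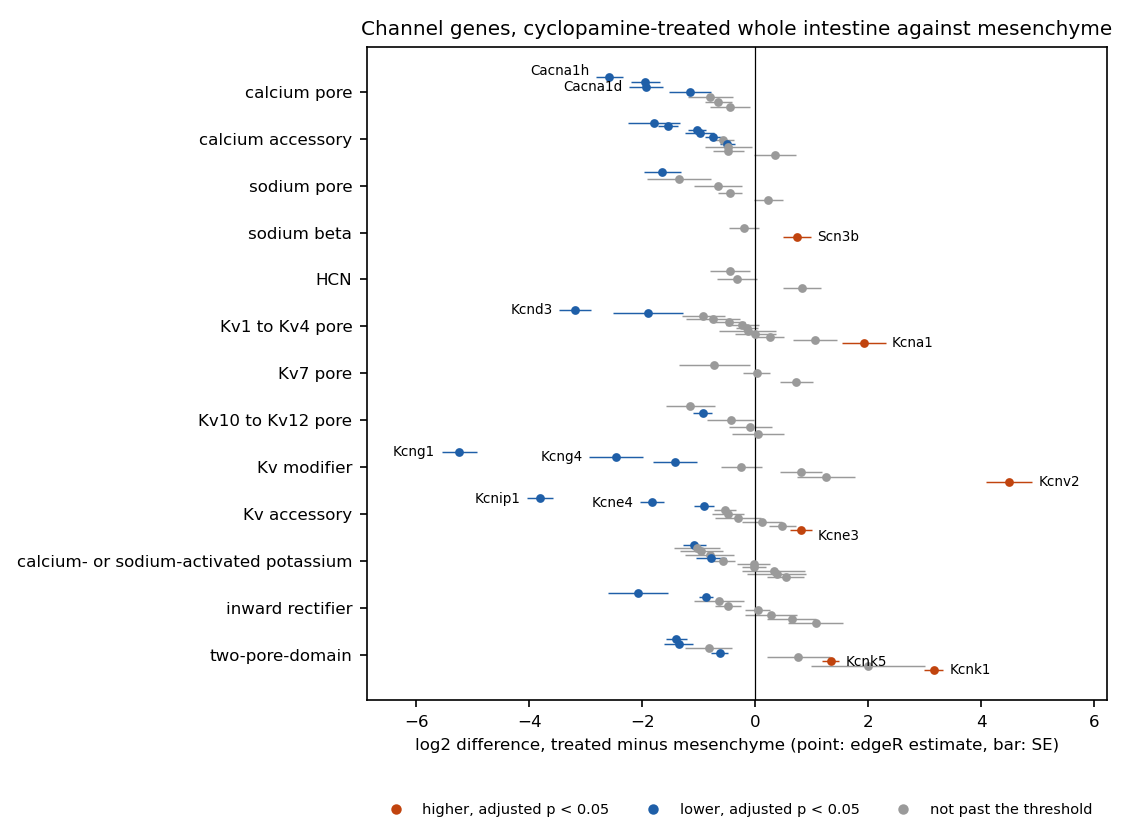
log2 difference between cyclopamine-treated whole intestine and mesenchyme (x axis, edgeR estimate with its standard error) for the channel genes reported, by channel class (y axis). Kcng1, Kcnip1 and Kcnd3 lie farthest to the left, and Kcnv2 and Kcnk1 farthest to the right.

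Of the calcium channel pore genes, 8 were described and 7 of the 8 were lower in epithelium than in mesenchyme (33.4% of all genes). The T-type pores Cacna1h and Cacna1g, which open at small depolarisations and underlie pacemaking in many excitable cells, were the most abundant of them. Cacna1h measured 395, 247 and 255 CPM in mesenchyme, 24.8, 8.53 and 9.71 CPM in epithelium, and 58.5, 42.5 and 48.7 CPM in treated intestine. The 3 groups did not overlap, and treated intestine held 16.7% of the mesenchymal mean. The log2 difference of treated intestine from mesenchyme was -2.58 (SE 0.24, adjusted p = 0.00029), and that of epithelium from mesenchyme was -4.43 (SE 0.47, adjusted p = 0.000212; -5.05 without epithelium replicate 1).

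Cacna1g measured 294, 172 and 196 CPM in mesenchyme, 64.6, 44.2 and 62.5 CPM in treated intestine and 21.6, 3.63 and 1.95 CPM in epithelium. It again showed no overlap between groups, and was lower by 1.94 on the log2 scale in treated intestine than in mesenchyme (SE 0.26, adjusted p = 0.00122). Its difference between the layers was -4.66 (SE 0.89, adjusted p = 0.00296; -6.32 without epithelium replicate 1). Cacna1i, the T-type pore otherwise best known from thalamus, was near the floor, with 1.35, 1.15 and 0.934 CPM in mesenchyme and 0.217 to 0.373 CPM in treated intestine, and had too few counts for the second comparison.

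The L-type pores Cacna1c, a channel through which calcium enters contracting muscle, and Cacna1d were also mesenchymal. Cacna1d measured 87.5, 41.5 and 60.4 CPM in mesenchyme, 16.4, 13.1 and 19.3 CPM in treated intestine and 4.83, 1.23 and 0.908 CPM in epithelium. Treated intestine lay below every mesenchyme library, at 25.7% of the mean (log2 difference -1.94, SE 0.30, adjusted p = 0.00231). Its exons share 6.54% of their bases with Chdh on the other strand, and the strand setting of the counting is not given. Cacna1c measured 78.8, 33.1 and 41.5 CPM in mesenchyme and 27.1, 14.9 and 25.9 CPM in treated intestine, a log2 difference of -1.15 (SE 0.37, adjusted p = 0.0423). This call was not kept without mesenchyme replicate 3 or without any one of the treated libraries (adjusted p = 0.0645, 0.074, 0.129 and 0.082).

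The pores of synaptic calcium channels behaved less uniformly. Cacna1b (N type, at nerve endings) measured 37.6, 13.7 and 24.1 CPM in mesenchyme and 21.5, 14.4 and 17.8 CPM in treated intestine, and Cacna1e (R type) 17.9, 7.88 and 9.2 CPM and 7.1, 3.73 and 8.12 CPM. For both the treated and mesenchymal ranges overlapped and the difference did not pass the threshold (log2 -0.44, SE 0.35, adjusted p = 0.353 for Cacna1b; log2 -0.80, SE 0.40, adjusted p = 0.15 for Cacna1e). Whether the T-type and N-type differences themselves differ was not tested. Cacna1a, the P/Q-type pore best known from Purkinje cells and synapses, was the only calcium pore gene higher in epithelium, at 29.1, 26.1 and 25.2 CPM against 23.6, 15.1 and 14.3 CPM in mesenchyme (log2 0.60, SE 0.21, adjusted p = 0.0423). That call was lost without any one of the epithelium libraries or without mesenchyme replicate 2 or 3 (adjusted p from 0.0519 to 0.117). Treated intestine, at 11.8, 9.33 and 11.6 CPM, lay below all 6 layer libraries. The difference passed against epithelium (log2 -1.33, SE 0.135, adjusted p = 0.000112) but not against mesenchyme (log2 -0.65, SE 0.24, adjusted p = 0.061).

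**Figure D3:**
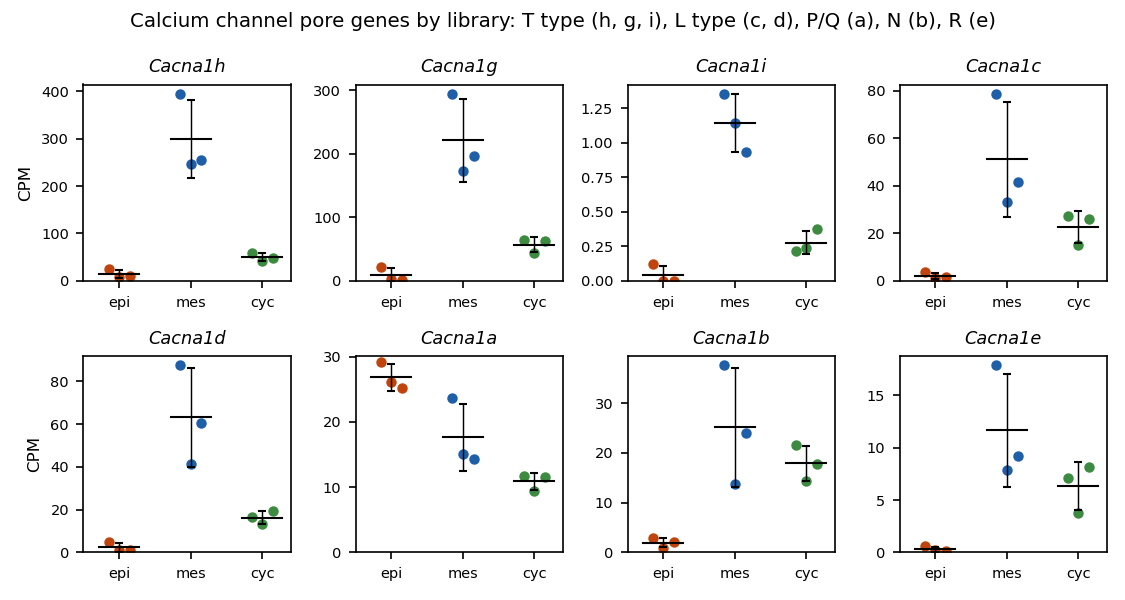
CPM of the 8 described calcium channel pore genes in each library (y axis, linear, starting at 0) for epithelium (epi), mesenchyme (mes) and cyclopamine-treated whole intestine (cyc). Points are libraries, lines the means and bars 1 SD (n = 3); Cacna1h, Cacna1g and Cacna1d show a gap between mesenchyme and treated intestine, while Cacna1b and Cacna1e overlap.

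Calcium channel auxiliary subunits followed the mesenchyme: 9 of the 10 tested were lower in epithelium, and 6 of 10 were lower in treated intestine than in mesenchyme (33.4% and 18.8% of all genes), with none higher in either comparison. Cacna2d1, the alpha2delta subunit that carries pores to the membrane and binds gabapentin, measured 109, 131 and 150 CPM in mesenchyme, 77.2, 76.2 and 79 CPM in treated intestine and 19.2, 11.1 and 13.2 CPM in epithelium. The 3 groups were separate (treated against mesenchyme, log2 -0.74, SE 0.14, adjusted p = 0.00473). Cacnb3, a cytoplasmic beta subunit, was the auxiliary subunit best represented in epithelium, at 22.4, 18.2 and 29.1 CPM against 82.6, 81.8 and 77 CPM in mesenchyme and 55.7, 61.1 and 54.3 CPM in treated intestine. Its treated against mesenchyme difference (log2 -0.49, adjusted p = 0.0177) was lost without treated replicate 1 or 3 (adjusted p = 0.0941 and 0.0812). Cacng7, a gamma subunit that also accompanies AMPA receptors in brain, measured 62.3, 56 and 61.9 CPM in mesenchyme and 22.3, 16.4 and 22.7 CPM in treated intestine (log2 -1.54, SE 0.17, adjusted p = 0.000593). Cacnb1 had 48.5% of its mesenchymal mean in treated intestine (adjusted p = 0.00255). Cacng4 and Cacng8, at 49.8% and 25.7% (adjusted p = 0.0189 and 0.0188), lost their calls without mesenchyme replicate 3 or treated replicate 2 (Cacng4, adjusted p = 0.0727 and 0.063) and without treated replicate 1 or 3 (Cacng8, adjusted p = 0.0813 and 0.0697). Cacnb2, Cacnb4, Cacna2d2 and Cacna2d3 did not pass, with treated means of 66.5, 74.2, 117 and 67% of mesenchyme.

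Sodium channel genes were lower in epithelium without exception among those tested: 6 of 6 described pores and 3 of 3 beta subunits (33.4% of all genes). Scn3a, a pore prominent in embryonic neurons, was the most abundant pore, with 18.4, 17.1 and 23.7 CPM in mesenchyme, 16.6, 11 and 15.8 CPM in treated intestine and 3.85, 1.35 and 2.18 CPM in epithelium. Treated intestine lay just below mesenchyme but did not pass the test (log2 -0.45, SE 0.21, adjusted p = 0.132). Scn9a, the peripheral neuron pore Nav1.7, measured 6.5, 6.7 and 8.82 CPM in mesenchyme and 9.64, 5.96 and 10.4 CPM in treated intestine, which overlapped, against 0.136 to 0.487 CPM in epithelium. Scn8a differed between the layers (log2 -1.65, adjusted p = 0.0269), a call lost without epithelium replicate 1 or 2 or mesenchyme replicate 1 (adjusted p = 0.0742, 0.0963 and 0.0506). In treated intestine Scn7a, Scn8a and Scn2b had 37.1, 58.2 and 82.8% of their mesenchymal means, and none passed.

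Scn1a was the only sodium pore lower in treated intestine than in mesenchyme (1 of 6 tested), a share near the 18.8% of all genes. It measured 4.06, 2.38 and 3.11 CPM in mesenchyme, 0.975, 0.903 and 1.03 CPM in treated intestine and 0.0845 to 0.365 CPM in epithelium, and the treated difference was -1.64 (SE 0.32, adjusted p = 0.00645). Scn3b, a beta subunit of neurons, went the other way, with 21.2, 14 and 20.9 CPM in treated intestine, 12.2, 8.41 and 13.5 CPM in mesenchyme and 1.22, 0.676 and 0.635 CPM in epithelium. Every treated value was above every mesenchyme value (log2 0.74, SE 0.25, adjusted p = 0.0459), but the call was lost without mesenchyme replicate 2 or 3 or treated replicate 1 or 3 (adjusted p from 0.0604 to 0.157). Beside Scn3b, 4 of 20 enteric neuron markers were higher in treated intestine than in mesenchyme and none was lower, a share near the 20.5% of all genes that were higher. The summed level of the list was 1301 to 1338 CPM in treated intestine and 974.4 to 1236 CPM in mesenchyme. The part of neuron content in the sodium channel values was not tested.

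HCN channels carry the inward pacemaker current on hyperpolarisation. Hcn4, the main isoform of the cardiac sinus node, was mesenchymal, at 9.48, 4.1 and 5.02 CPM against 0.974, 0.549 and 0.726 CPM in epithelium and 5.15, 3.73 and 4.95 CPM in treated intestine (epithelium against mesenchyme, log2 -3.01, adjusted p = 0.000725). Hcn2 and Hcn3 passed in none of the 3 comparisons; Hcn3 was lower in epithelium than in mesenchyme without mesenchyme replicate 2 (log2 -1.17, adjusted p = 0.0187) and shares 17.8% of its exon bases with Pklr on the other strand.

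Of the pore genes of the Kv1 to Kv4 families, which form the delayed rectifiers and the transient A-type current, 11 of 13 tested were lower in epithelium (33.4% of all genes). In treated intestine 3 of 14 were lower than in mesenchyme, a share near the 18.8% of all genes, and 1 was higher. Kcnd3, the A-type pore Kv4.3, was the most abundant and was the lowest in treated intestine relative to mesenchyme. It measured 157, 81.4 and 133 CPM in mesenchyme, 14.2, 11.2 and 14.8 CPM in treated intestine, and 7.87, 0.76 and 0.817 CPM in epithelium. Treated intestine held 10.9% of the mesenchymal mean, with no overlap (log2 -3.19, SE 0.28, adjusted p = 0.000216), and the layers differed by -5.33 (SE 0.93, adjusted p = 0.00193; -7.30 without epithelium replicate 1). An antisense gene, Kcnd3os, covers 2.17% of its exon bases. Kcna5 (Kv1.5) measured 27.9, 18.5 and 25 CPM in mesenchyme and 21.6, 18.9 and 23.3 CPM in treated intestine, which overlapped. It did not pass (adjusted p = 0.592), and its epithelial mean was 3.62% of the mesenchymal one. The other A-type pores differed from Kcnd3 in value: Kcnd2 had 121% and Kcnd1 50.5% of the mesenchymal mean in treated intestine, neither past the threshold.

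Among the Kv1 genes, Kcna1 (Kv1.1, an axonal channel) was higher in treated intestine than in mesenchyme. It measured 2.76, 2.59 and 3.92 CPM in treated intestine, 0.813, 0.529 and 1.11 CPM in mesenchyme, and 0.162, 0 and 0.454 CPM in epithelium, and every treated value lay above the rest (log2 1.92 against mesenchyme, SE 0.39, adjusted p = 0.00717). Kcna4, another A-type pore, measured 1.95, 1.45 and 1.35 CPM in treated intestine and 0.813, 0.484 and 1 CPM in mesenchyme, and had no count in any epithelium library. Against a floor of 3 counts over the epithelium group (0.0426 CPM), treated intestine was at least 37.1-fold higher and mesenchyme at least 18-fold higher; the difference of treated intestine from mesenchyme missed the threshold (log2 1.06, SE 0.39, adjusted p = 0.0632). Kcna2 measured 2.71, 1.72 and 3.53 CPM in mesenchyme and 2.82, 1.87 and 3.17 CPM in treated intestine, 98.8% of it. Kcna3 (Kv1.3, known from lymphocytes) had a treated mean of 24.3% of mesenchyme (adjusted p = 0.043). The call was lost without mesenchyme replicate 1 or 3 or any one treated library (adjusted p from 0.0579 to 0.139).

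The 5 Kv7 genes, whose channels give the slow M current that damps firing, were all lower in epithelium (33.4% of all genes). Kcnq5 measured 8.94, 5.9 and 8.3 CPM in mesenchyme and 8.61, 6.32 and 8.07 CPM in treated intestine (log2 0.03, SE 0.24, adjusted p = 0.932). Kcnq3, a neuronal M channel pore, overlapped between treated intestine and mesenchyme (adjusted p = 0.384). Kcnq1, the pore that Kcne subunits tune in epithelia, was low in epithelium itself, at 0.73, 0.507 and 0.454 CPM, and measured 1.9, 1.89 and 1.35 CPM in mesenchyme and 2.87, 2.71 and 2.66 CPM in treated intestine. Its antisense gene Kcnq1ot1 covers 3.99% of its exon bases.

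Among the Kv10 to Kv12 genes, Kcnh2, the ERG pore of heart and gut muscle, was the most abundant, with 110, 80.9 and 81.4 CPM in mesenchyme, 48.6, 48.5 and 45.1 CPM in treated intestine and 24.1, 17.7 and 28.6 CPM in epithelium. The 3 groups were separate, and treated intestine differed from mesenchyme by -0.93 (SE 0.17, adjusted p = 0.00467). Its relative Kcnh6 was higher in epithelium, at 2.96, 1.56 and 2.27 CPM against 1.35, 0.396 and 0.346 CPM in mesenchyme and 1.25, 0.301 and 0.747 CPM in treated intestine (log2 2.11, adjusted p = 0.0121), a call lost without mesenchyme replicate 2 or 3 (adjusted p = 0.0506 and 0.0621). Kcnh1, Kcnh3, Kcnh4 and Kcnh8 did not pass between treated intestine and mesenchyme, with treated means of 92.6, 66.5, 41.4 and 90.7% of mesenchyme, though Kcnh4 passed without mesenchyme replicate 2 (log2 -1.49, adjusted p = 0.0251).

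The modifier subunits do not form channels alone but join Kv2 pores and change how they gate. They include the gene lowest in treated intestine relative to mesenchyme among the channel genes tested. Kcng1 (Kv6.1) had 190, 657 and 892 counts in the mesenchyme libraries, 18, 15 and 21 in the treated libraries and 52, 9 and 9 in the epithelium libraries. As CPM these were 51.5, 28.9 and 30.9 in mesenchyme, 0.975, 0.903 and 0.98 in treated intestine and 2.11, 0.38 and 0.408 in epithelium. Treated whole intestine, which contains mesenchyme, thus held 2.57% of the mesenchymal mean, beside 2.61% for epithelium (treated against mesenchyme, log2 -5.24, SE 0.31, adjusted p = 6.2e-05; epithelium against mesenchyme, log2 -5.26, SE 0.65, adjusted p = 0.00041, and -6.54 without epithelium replicate 1). Treated intestine and epithelium overlapped (log2 -0.07, SE 0.67, adjusted p = 0.931), but without epithelium replicate 1 the sign turned and treated intestine was higher (log2 1.22, adjusted p = 0.0207).

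Kcnv2 (Kv8.2), a modifier known from retinal photoreceptors, showed the opposite pattern, with 7.47, 11.5 and 9.53 CPM in epithelium, 6.83, 6.38 and 6.72 CPM in treated intestine and 0.542, 0.132 and 0.381 CPM in mesenchyme. Mesenchyme was separate from both (epithelium against mesenchyme, log2 4.95, SE 0.46, adjusted p = 0.000133; treated intestine against mesenchyme, log2 4.50, SE 0.41, adjusted p = 0.000272). Kcng4, at 3.52, 1.63 and 1.7 CPM in mesenchyme and 0.271, 0.301 and 0.513 CPM in treated intestine, was also lower in treated intestine (log2 -2.46, SE 0.48, adjusted p = 0.00598), and so was Kcng2 (log2 -1.42, SE 0.39, adjusted p = 0.0227). Kcnf1 and Kcnv1 were highest in treated intestine, with means at 307% and 183% of mesenchyme, and Kcns3 was level at 91.7%; none of these passed (adjusted p = 0.0855, 0.117 and 0.611).

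The Kv accessory subunits held both directions as well. Kcnip1, a calcium-binding KChIP subunit that assembles with Kv4 pores such as Kcnd3, measured 20.6, 25.2 and 30.8 CPM in mesenchyme, 1.41, 1.93 and 2.1 CPM in treated intestine and 2.15, 0.634 and 0.545 CPM in epithelium. Treated intestine held 7.09% of the mesenchymal mean (log2 -3.81, SE 0.23, adjusted p = 6.2e-05) and overlapped epithelium (log2 0.66, SE 0.53, adjusted p = 0.295; 1.57, adjusted p = 0.00466, without epithelium replicate 1). The other KChIP genes did not share this: Kcnip2, Kcnip3 and Kcnip4 had 74.4, 70.5 and 136% of the mesenchymal mean in treated intestine and none passed (adjusted p = 0.579, 0.0602 and 0.152), though Kcnip3 passed without mesenchyme replicate 1 (log2 -0.69, adjusted p = 0.00792). Kcne4, a single-span subunit of muscle that inhibits Kv1 and modulates Kv7 pores, measured 19.8, 19.2 and 25.4 CPM in mesenchyme and 7.48, 6.02 and 4.67 CPM in treated intestine (log2 -1.82, SE 0.21, adjusted p = 0.000752).

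Kcne3, the single-span subunit that holds Kcnq1 open in secretory crypt cells, was the most abundant channel gene of epithelium. It measured 100, 91.9 and 104 CPM in epithelium, 41, 35.4 and 27 CPM in treated intestine and 21.9, 20.2 and 17.5 CPM in mesenchyme, with no overlap between groups. Epithelium exceeded mesenchyme by 2.28 on the log2 scale (SE 0.15, adjusted p = 4.86e-05). Treated intestine exceeded mesenchyme by 0.81 (SE 0.19, adjusted p = 0.0133), a call lost without mesenchyme replicate 3 or treated replicate 1 or 2 (adjusted p = 0.0534, 0.0663 and 0.0538). Per kilobase of transcript, the mean epithelial level of Kcne3 was 75 CPM, against 30.2 for Kcnk1, 9.37 for Cacnb3 and 9.06 for Kcnk5, the next 3 in epithelium. In mesenchyme the highest mean levels per kilobase were 47.8 for Kcnj8, 38.8 for Kcnk3, 36.4 for Cacna1h and 33.1 for Cacna2d1. Kcnab3, a cytoplasmic beta subunit, was higher in epithelium at 7.71, 7.14 and 17.6 CPM against 5.42, 4.93 and 4.29 CPM in mesenchyme (log2 1.14, adjusted p = 0.0402), a call lost without epithelium replicate 3 (log2 0.66, adjusted p = 0.0677) and without any one mesenchyme library (adjusted p from 0.0601 to 0.112).

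Of the calcium- and sodium-activated potassium channel genes, which couple a rise of either ion to repolarisation, 9 of 11 tested were lower in epithelium (33.4% of all genes), and 2 were lower in treated intestine than in mesenchyme, a share near the 18.8% of all genes. Kcnma1, the BK pore that limits smooth muscle contraction, measured 36, 22.5 and 27.6 CPM in mesenchyme, 13.5, 13.7 and 12.8 CPM in treated intestine and 2.23, 0.507 and 0.318 CPM in epithelium. Treated and mesenchymal values did not overlap (log2 -1.08, SE 0.20, adjusted p = 0.00492), but with all 9 libraries in a single fit the call was lost (adjusted p = 0.0676); a gene on the other strand covers 7.87% of its exon bases. Kcnmb1, the BK beta subunit of smooth muscle, was at 15.2, 8.32 and 8.93 CPM and 5.91, 5.9 and 6.11 CPM (adjusted p = 0.0476), and lost its call without mesenchyme replicate 3 or any one treated library (adjusted p from 0.059 to 0.13). Kcnn3, the SK pore of the fibroblast-like cells that relay inhibition to gut muscle, measured 91.6, 31.8 and 49.1 CPM in mesenchyme and 31.3, 18.5 and 32.9 CPM in treated intestine, overlapping and not past the threshold (log2 -1.03, SE 0.40, adjusted p = 0.0762), although it passed without mesenchyme replicate 2 (log2 -1.34, adjusted p = 0.0208) and in DESeq2 (log2 -1.06, adjusted p = 0.0237).

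Inward rectifiers were led by Kcnj8 (Kir6.1), the pore of the ATP-sensitive channel of muscle and pericytes. It measured 118, 130 and 118 CPM in mesenchyme, 62.1, 64.1 and 72.5 CPM in treated intestine and 13.9, 2.53 and 2.13 CPM in epithelium. The 3 groups were separate, and treated intestine differed from mesenchyme by -0.87 (SE 0.13, adjusted p = 0.0018); in a single fit of all 9 libraries this did not pass (adjusted p = 0.202). Its regulatory partner Abcc9, also counted among the pericyte markers, measured 631, 414 and 465 CPM in mesenchyme and 169, 118 and 200 CPM in treated intestine (log2 -1.63, SE 0.25, adjusted p = 0.00239). Kcnj2 (Kir2.1) measured 71.8, 52.6 and 55.9 CPM and 40.5, 32.6 and 54.4 CPM, which overlapped (adjusted p = 0.128), and Kcnj12 (Kir2.2) had 100% of its mesenchymal mean (adjusted p = 0.889). Kcnj10 (Kir4.1, a channel of glia) measured 8.13, 4.05 and 2.94 CPM in mesenchyme and 1.08, 0.542 and 1.63 CPM in treated intestine (log2 -2.08, adjusted p = 0.0177; adjusted p = 0.0624 and 0.0583 without treated replicate 1 or 2). The glial and crest progenitor markers summed to 533.7 to 724.6 CPM in mesenchyme and 305.9 to 428.8 CPM in treated intestine, and their part in Kcnj10 was not tested. Kcnj4 (Kir2.3) was the inward rectifier higher in epithelium, at 2.03, 1.6 and 2.5 CPM against 0.271, 0.573 and 0.242 CPM in mesenchyme (log2 2.36, SE 0.45, adjusted p = 0.00294; 3.02 without mesenchyme replicate 2).

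The K2P genes, which encode background leak channels, were divided by layer. Kcnk1 (TWIK-1) measured 63.2, 77.1 and 62.2 CPM in epithelium, 37, 35.3 and 34.4 CPM in treated intestine and 4.06, 4.54 and 3.46 CPM in mesenchyme. The groups were widely separate (epithelium against mesenchyme, log2 4.04, SE 0.19, adjusted p = 2.94e-05). Kcnk5 (TASK-2, an alkali-activated channel of kidney and gut epithelia) measured 31, 31 and 30.2 CPM in epithelium, 15.1, 14.9 and 13.7 CPM in treated intestine and 5.42, 5.81 and 6.02 CPM in mesenchyme (log2 2.36, SE 0.15, adjusted p = 4.76e-05). An antisense gene covers 8.01% of the exon bases of Kcnk1. Kcnk3 (TASK-1, acid-sensitive, found in vascular muscle) and Kcnk2 (TREK-1, stretch-activated, found in gut muscle) were mesenchymal. Kcnk3 measured 172, 111 and 160 CPM in mesenchyme, 58.7, 50.7 and 58.5 CPM in treated intestine and 8.56, 3.25 and 1.45 CPM in epithelium, with a treated difference of -1.39 (SE 0.19, adjusted p = 0.00146). Kcnk2 measured 59.3, 31 and 49.8 CPM in mesenchyme and 19.1, 19.3 and 15.7 CPM in treated intestine (log2 -1.36, SE 0.25, adjusted p = 0.00474); 14.4% of its exon bases have a gene on the other strand.

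**Figure D4:**
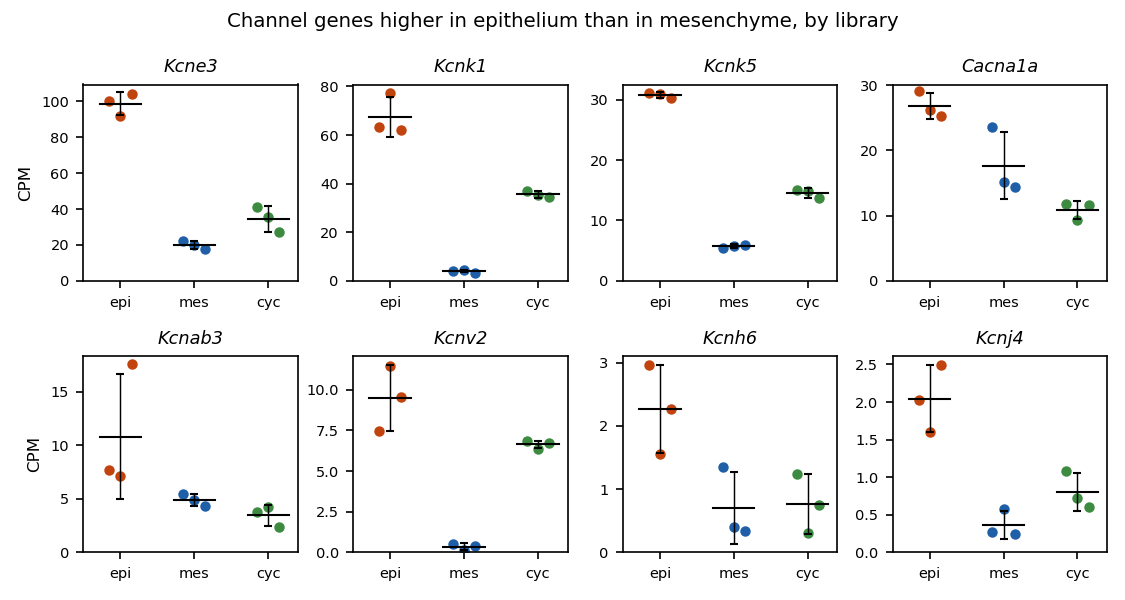
CPM in each library (y axis, linear, starting at 0) of 8 channel genes higher in epithelium than in mesenchyme, for epithelium (epi), mesenchyme (mes) and cyclopamine-treated whole intestine (cyc). Points are libraries, lines the means and bars 1 SD (n = 3); Kcnk1, Kcnk5 and Kcne3 show 3 separate groups, and for Kcnv2 mesenchyme lies far below both others.

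The stretches upstream of Kcnk1 and Kcnk5, the tandem-pore genes of epithelium, and of Kcnd3, the abundant pore gene that was lowest in treated intestine, are shown because the levels of these genes separate the layers without overlap. Each line gives the 250 bases before a RefSeq transcript start on GRCm38.p6, with CG dinucleotides in capitals.
Kcnk1 (chr8:125994852-125995101, plus strand): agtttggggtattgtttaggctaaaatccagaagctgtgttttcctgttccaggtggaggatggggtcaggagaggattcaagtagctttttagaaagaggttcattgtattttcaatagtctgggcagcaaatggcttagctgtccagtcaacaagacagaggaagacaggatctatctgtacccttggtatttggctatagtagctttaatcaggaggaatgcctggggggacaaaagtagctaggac
Kcnk5 (chr14:20181783-20182032, minus strand): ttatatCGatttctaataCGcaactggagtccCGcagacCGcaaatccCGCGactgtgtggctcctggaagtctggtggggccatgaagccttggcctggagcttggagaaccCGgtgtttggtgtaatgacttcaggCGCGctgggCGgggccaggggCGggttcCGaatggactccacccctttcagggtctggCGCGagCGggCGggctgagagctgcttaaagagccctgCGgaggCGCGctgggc
Kcnd3 (chr3:105451640-105451889, plus strand): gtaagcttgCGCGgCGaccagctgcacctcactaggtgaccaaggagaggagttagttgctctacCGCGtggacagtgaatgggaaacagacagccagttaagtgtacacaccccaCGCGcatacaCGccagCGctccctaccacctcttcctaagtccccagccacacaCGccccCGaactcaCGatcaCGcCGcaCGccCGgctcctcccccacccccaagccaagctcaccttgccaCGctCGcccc
The Kcnk1 window holds 0 CG dinucleotides and is 44.4% G or C, the Kcnk5 window 19 and 62.8%, and the Kcnd3 window 18 and 62.8%. The median over 32851 RefSeq promoter windows was 6 CG and 52.4%, so the 2 epithelial genes lie on opposite sides of it. Of the 105 described genes, 72 had such a window. The GLI core motif GGGTGGTC, bound by the transcription factors of the hedgehog pathway, was searched on both strands. It was found in 0.703% of all windows, in that of Cacnb4 among the described genes, and in none of the 20 windowed genes lower in treated intestine. The letters CAAAGTCCA (HNF4) and TTTATGG (CDX), motifs of intestinal epithelial factors, were in 0.384% and 2.43% of all windows and in none of the channel genes. A letter match is not a bound site, and its absence from these windows says nothing of the factors.

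Against both layers at once, no channel gene was called outside the range of epithelium and mesenchyme in treated intestine. Of 101 members tested in the fit of all 9 libraries, edgeR's quasi-likelihood test put 0 above both layers and 0 below both, where 1.24% and 3.83% of all 15699 genes were called (5.07% in either direction). At an unadjusted p under 0.05, 5 members lay above both (Kcnq1, Kcna1, Kcna4, Scn3b and Kcnf1) and Cacna1a lay below both. These were 6 of 101 members, beside 2218 of all 15699 genes at the same cut-off, so they are not read as a result. DESeq2 called Cacna1a below both layers (smaller log2 difference -0.71, adjusted p = 0.032), against an adjusted p of 0.0913 in edgeR.

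**Figure D5:**
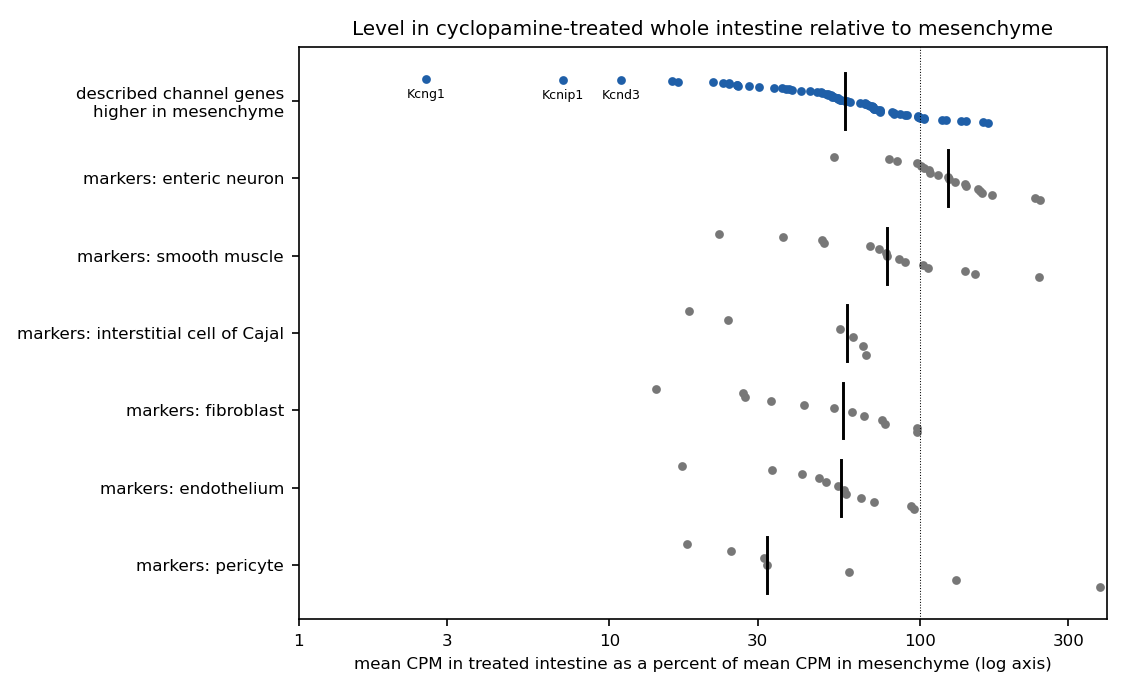
Mean CPM in cyclopamine-treated whole intestine as a percent of the mean in mesenchyme (x axis, log scale) for the 73 channel genes lower in epithelium and for marker lists of mesenchymal cell types (y axis); each point is a gene and each line a median. Kcng1, Kcnip1 and Kcnd3 lie below every marker gene plotted, and enteric neuron markers centre near 124%.

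The treated level as a percent of the mesenchymal level was spread widely among the 73 channel genes lower in epithelium. Their median was 57.2%, and that of all 105 described members was 69%. The 73 were picked through the same mesenchyme libraries that are the base of this percent, while the marker lists were set by name. Marker medians were 56.6% for 12 fibroblast, 78.4% for 15 smooth muscle, 58.2% for 6 interstitial cell of Cajal and 55.7% for 12 endothelial markers. They were 32.3% for 7 pericyte markers and 124% for 20 enteric neuron markers. Markers within these lists ranged from 14.1% (a fibroblast marker) upwards, so Kcng1 at 2.57%, Kcnip1 at 7.09% and Kcnd3 at 10.9% lay below all of them, and Cacna1h at 16.7% was close to the lowest. In bulk tissue, fewer cells of a type and less RNA per cell cannot be told apart. For the 9 genes higher in epithelium, treated intestine held a median of 40.6% of the epithelial mean. For 15 epithelial markers the median was 40.9% (24.7 to 60.5%). The 9 genes spread more widely than their median shows, and Kcnv2 lay above the range of these markers.

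In the authors' deposited table of treated intestine over mesenchyme the fold was 0.0245 for Kcng1, 0.0678 for Kcnip1, 0.104 for Kcnd3 and 8.46 for Kcnk1. By the adjusted p-values of the authors' deposited tables, 77 of 132 members were higher in mesenchyme than in epithelium and 8 lower, where 4691 and 4177 of 20079 genes were; 5 of 133 were higher and 18 lower in treated intestine than in mesenchyme, where 1992 and 1943 of 20187 genes were. The authors' deposited table also marks 119 genes with a muscle label. Only 2 of these are channel genes, Kcnip1 and Cacna1h, where channel genes are 135 of all 24016 rows. So small a count is not read as a result.

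Genes that work with these channels were read from a separate list of partners and regulators. Of 37 tested, 26 were lower and 5 higher in epithelium than in mesenchyme, and of 38 tested, 11 were lower and 4 higher in treated intestine than in mesenchyme. Over all genes the shares were 33.4% and 29.3% between the layers, and 18.8% and 20.5% for treated intestine. The list's median log2 differences were -2.45 and -0.06. Lrrc55, a gamma subunit that lets the BK channel open at lower voltage, was the lowest of the list in treated intestine relative to mesenchyme. It measured 22.8, 19.9 and 19.8 CPM in mesenchyme, 1.9, 0.723 and 1.35 CPM in treated intestine and 1.05, 0.465 and 0.408 CPM in epithelium (treated against mesenchyme, log2 -3.94, SE 0.31, adjusted p = 0.000154). Rem1, a small GTPase that inhibits calcium channels, and Tpcn1, an endolysosomal cation channel, were also lower in treated intestine (log2 -1.66 and -1.58, adjusted p = 0.00216 and 0.00186). Among those that were higher were Akap5, a kinase scaffold for L-type channels (log2 1.26), Cntnap2, which clusters Kv1 channels on axons (log2 1.33), and Kctd12, a subunit of GABA-B receptors (log2 0.58).

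Genes of intracellular calcium release and uptake followed a like split. Of 24 tested, 18 were lower and 2 higher in epithelium than in mesenchyme, and of 25 tested, 11 were lower and 1 higher in treated intestine than in mesenchyme, beside the same shares over all genes (33.4% and 29.3%, then 18.8% and 20.5%). Their median log2 differences were -2.50 and -0.56. The ryanodine receptor genes Ryr2 and Ryr3, whose channels release stored calcium in muscle, measured 20.8 ± 8.40 and 14.7 ± 4.37 CPM in mesenchyme, and 8.18 ± 1.62 and 5.65 ± 1.68 CPM in treated intestine (SD, n = 3). The libraries of the groups overlapped for neither gene (log2 -1.29 and -1.33, adjusted p = 0.0141 and 0.0119). Of the IP3 receptor genes, whose channels release calcium on hormone or transmitter signals, Itpr3 and Itpr1 were highest in different layers. Itpr3 measured 364, 388 and 339 CPM in epithelium and 45.8, 29.4 and 41.8 CPM in mesenchyme (log2 3.19, SE 0.20, adjusted p = 4.68e-05), whereas Itpr1 measured 40.2, 27.9 and 30.2 CPM and 185, 126 and 160 CPM (log2 -2.30, SE 0.20, adjusted p = 0.000111). Itpr3 and Itpr1 were singled out after their values were seen, and Itpr2 is not described.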

How the data were processed

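RNA-seq covered 9 libraries, 3 each of epithelium, mesenchyme and whole intestine cultured with cyclopamine. Per the submitters' processing notes, TopHat2 2.0.13, mm9 and DESeq (no version) were used for processing. Which program counted the reads, with which annotation and strand option, is not given in the sources used here. The authors deposited whole read counts per gene, group means of normalised counts (a signal), a ratio or fold of those means, and p-values; both count tables hold the same 6 columns for the layers. Of the gene symbols, 27 had become numbers in the deposited file and were named by accession.

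Counts were tested with edgeR 4.0.16 in R 4.3.3 (limma 3.58.1; filterByExpr with a minimum count of 10, TMM factors, quasi-likelihood F test, two-sided, Benjamini-Hochberg over all genes tested, threshold 0.05) in fits of 6 libraries per comparison. A gene was called outside both layers from the larger p of its 2 differences in a fit of all 9 libraries. CPM values use TMM factors over all 9 libraries. Levels given per kilobase use the GENCODE M21 transcript matched by RefSeq accession (135 of 135 members). Other statements that a gene was the most abundant rest on CPM without correction for transcript length. The fits were tested on simulated data. Alternatives were DESeq2 1.42.0, other size factors, no filter, a replicate block, a single fit of 9 libraries, each library left out, and, chosen after seeing the data, totals without Rn45s, Lars2 and Mir6236. For a gene without counts in a group the floor is 3 counts over the group, which covers counting error only.

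Members and lists were chosen with earlier results of these data known. Any member with at least 0.5 CPM in a group could be named; library values are given for up to 3 members of each class with the highest level and up to 2 with the largest called difference in each direction, and for up to 4 called genes per list and comparison. Some members are not reported here by name or plotted singly; the counts include them.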

Additional observations from a re-analysis of the deposited data

How the results depend on the processing

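Counts of channel genes called stayed within 1.5 times of the reported ones under every alternative run, apart from genes below both layers, where DESeq2 called 1 (Cacna1a) and edgeR 0. Over single omitted libraries, 6 to 8 members were higher and 72 to 82 lower in epithelium than in mesenchyme, 5 to 7 higher and 22 to 34 lower in treated intestine than in mesenchyme, and 67 to 78 higher and 7 to 9 lower in treated intestine than in epithelium. The shares over all genes moved too, with 10.4 to 24.6% lower in treated intestine than in mesenchyme. Of the values of single named genes under the alternatives, 2176 kept their direction and side of the threshold, 80 lost a call, 23 gained one and 1 reversed: Kcng1 in treated intestine against epithelium, at a log2 difference of -0.07, and 1.22 without epithelium replicate 1 (-0.462 to 1.22 over single omitted libraries). The cause was not tested. The median over all genes moved by more than 0.1 only for treated intestine against epithelium with library totals without Rn45s, Lars2 and Mir6236 (0.159 on the log2 scale).

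Replicate numbers are shared between groups, but same-numbered libraries did not deviate together in every pair. Correlations of deviations were 0.0472, 0.268 and -0.0362 for epithelium with mesenchyme, and 0.224, 0.194 and 0.0556 for treated intestine with mesenchyme. For treated intestine with epithelium they were 0.0059, 0.0896 and -0.202. Differently numbered libraries gave -0.22 to 0.12, -0.205 to 0.033 and -0.195 to 0.173 in the same order. Only for treated intestine with mesenchyme did every same-numbered value lie above that range. The numbers were not taken as pairs. With the replicate block, 8 members were higher and 74 lower in epithelium than in mesenchyme, 7 higher and 30 lower in treated intestine than in mesenchyme, and 72 higher and 8 lower in treated intestine than in epithelium; 0 lay outside both layers. In treated intestine against mesenchyme the block brought Kcnn3 (log2 -0.96, adjusted p = 0.0192) and Cacna1a (log2 -0.65, adjusted p = 0.0423) past the threshold and Kcnmb1 no longer passed (log2 -0.77, adjusted p = 0.0504). Between the layers it brought in Hcn3 and Kcnh1 (adjusted p = 0.0372 and 0.0189) and lost Kcnab3 (adjusted p = 0.0623), and in treated intestine against epithelium it brought in Kcnd3 (adjusted p = 0.0208) and lost Kcnv2 (adjusted p = 0.0576). At the depth of mesenchyme replicate 1, 3 counts were worth 0.813 CPM, which limits the precision of its values for genes near 1 CPM.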
